A study of Mus musculus with 88 samples.

Results

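Thyroid samples of 11 female mice, athymic nude animals on a BALB/c background (strain CAnN.Cg-Foxn1nu/Crl), were compared. Of these mice, 3 had been irradiated at the collum, thorax and abdomen (group C), 3 at the thorax and abdomen (group B), and 5 were sham controls. The samples were chosen by their labelled tissue and irradiated area, and they are 11 of 84 samples, on 13 of 88 arrays, in a series over 6 tissues and 14 mice. The field of group C included the collum, the neck region that holds the thyroid, whereas the field of group B left it out. A single dose of 2 Gy was given with photons under anaesthesia, the sham controls were anaesthetized only, and all mice were 4 months old and were killed 24 h later. The nude mutation, which sham controls carry as well, leaves these mice without a working thymus and with few T lymphocytes. The remaining 3 thyroid samples, irradiated at the collum alone, entered the normalization and the detection filter but none of the comparisons. RNA was hybridized to Illumina MouseRef-8 bead arrays, and a level is the log2 of the normalised bead signal of 1 probe, so that 1 unit is a 2-fold difference and values near 4.4 are background. The thyroid of sham control 5 was measured on 3 arrays, which were averaged to 1 animal.

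The thyroid lies on the trachea and oesophagus under the strap muscles of the neck. Its follicular cells make thyroglobulin, the protein on which thyroid hormone is built, and parathyroid glands, salivary glands, brown fat and nerve ganglia are close neighbours. Ionizing radiation breaks DNA and activates the transcription factor p53, whose target Cdkn1a encodes the cell cycle inhibitor p21 and is a common readout of exposure. Metallothioneins bind zinc and other metals and are induced by metals, by glucocorticoids and by stress. The question of these samples was how thyroid transcripts responded to a field that held the gland and to one that did not.

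Promoters of 3 genes on which the following description turns are shown, from 250 bases before to 50 bases after the transcription start. The actin promoter is shown because skeletal muscle actin (Acta1) was among the brightest transcripts of every sample compared. The metallothionein promoters are shown because Mt2 separated groups C and B. The sequences are from RefSeq, build GRCm38.p6, and read 5′ to 3′ along the gene. In Acta1 (chr8:123894726-123895025, minus strand) the capitals mark the single match to the CArG box, the serum response factor motif of muscle promoters, which 1.63% of 32851 such promoters hold. In Mt1 (chr8:94178839-94179138, plus strand) and Mt2 (chr8:94172368-94172667, plus strand) the capitals mark the 3 and 4 matches, on either strand, to the metal response element core TGCGCNC or TGCACNC, which 25.7% of these promoters hold. No match overlapped another, and a match is a description of the letters and not of a site in use.
Acta1: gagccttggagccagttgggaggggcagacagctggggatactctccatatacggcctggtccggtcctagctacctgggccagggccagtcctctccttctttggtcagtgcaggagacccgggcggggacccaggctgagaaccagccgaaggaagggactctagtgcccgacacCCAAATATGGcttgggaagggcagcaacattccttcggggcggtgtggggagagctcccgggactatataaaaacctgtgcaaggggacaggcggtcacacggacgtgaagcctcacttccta
Mt1: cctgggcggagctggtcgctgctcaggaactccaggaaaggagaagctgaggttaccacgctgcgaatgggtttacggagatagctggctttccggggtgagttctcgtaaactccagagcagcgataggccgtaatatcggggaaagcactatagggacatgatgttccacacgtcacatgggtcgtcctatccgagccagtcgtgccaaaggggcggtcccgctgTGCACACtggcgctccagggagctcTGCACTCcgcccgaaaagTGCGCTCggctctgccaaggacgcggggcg
Mt2: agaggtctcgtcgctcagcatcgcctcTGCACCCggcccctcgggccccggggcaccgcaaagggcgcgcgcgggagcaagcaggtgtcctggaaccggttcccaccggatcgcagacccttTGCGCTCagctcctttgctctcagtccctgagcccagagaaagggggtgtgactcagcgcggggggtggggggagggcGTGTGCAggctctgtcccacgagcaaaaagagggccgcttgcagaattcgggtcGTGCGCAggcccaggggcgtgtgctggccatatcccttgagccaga

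Skeletal muscle transcripts dominated the samples, and thyroid transcripts were found in a minority of them. Acta1 was 14.11, 14.11 and 14.25 in group C, 14.27, 14.15 and 14.18 in group B, and 14.09 to 14.24 in sham controls. Thyroglobulin (Tg) was 4.42, 8.36 and 14.15 in group C, 5.50, 4.46 and 7.72 in group B, and 12.33, 4.49, 4.41, 14.41 and 4.43 in sham controls. Tg was thus detected in 5 of the 11 animals, group B replicate 3, group C replicates 2 and 3, and sham controls 1 and 4, and the spread within each group exceeded any difference between groups. Among the remaining tissues Tg was detected on 5 arrays, all of them of spleen. Of the follicular transcription factors, Pax8 was detected in group C replicate 3 (5.61) and sham control 4 (7.25) only, and the thyrotropin receptor (Tshr) and iodide transporter (Slc5a5) in none of the 11. Over all 14 thyroid animals the transcript most correlated with Tg was Nkx2-1, a thyroid and lung transcription factor (Pearson r = 0.917). Ager (0.897) and Iyd, the enzyme that recovers iodide (0.894), followed. These values are a description over samples of mixed tissue. In 1 of the samples irradiated at the collum alone, Acta1 was not detected (4.58). In the 6 samples in which Tg was not detected the tissue is known from the label alone. In such bulk samples fewer cells of a type and less RNA per cell cannot be told apart.

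**Figure D1:**
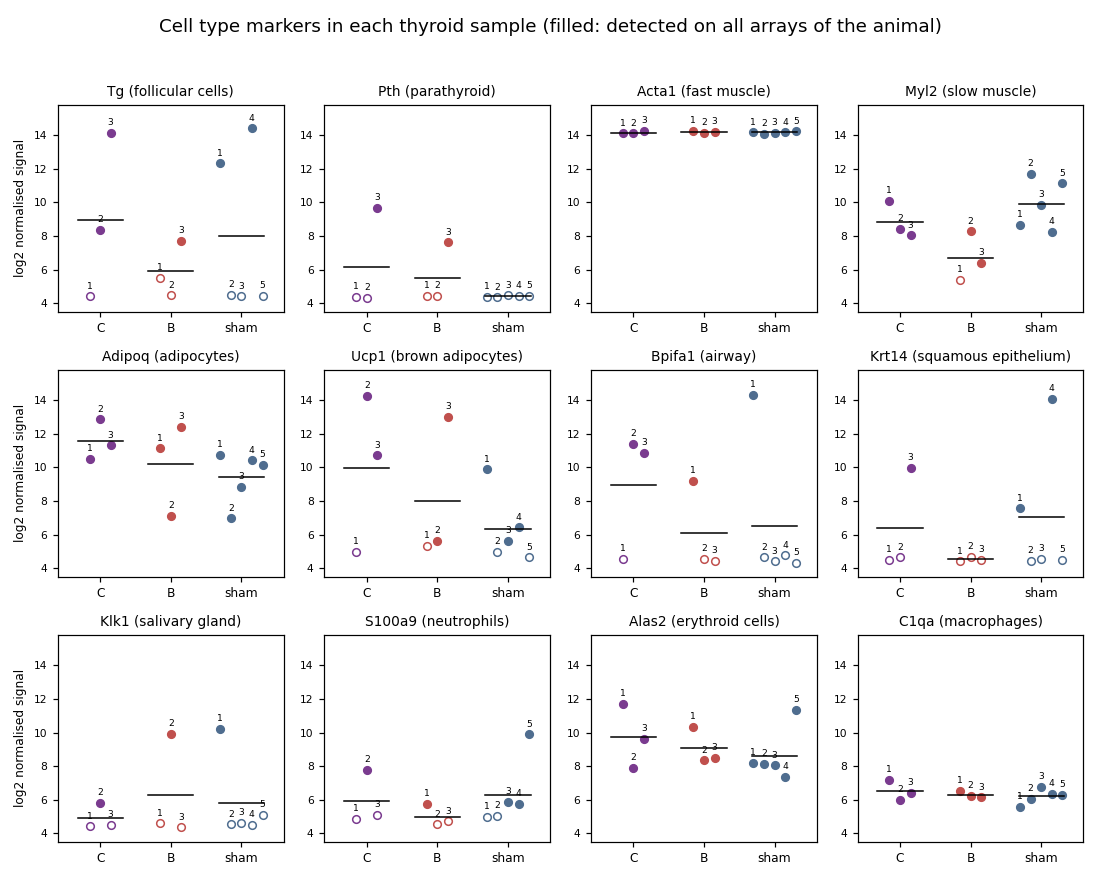
Log2 normalised signal (vertical axis) of 1 defining marker per cell type, with 1 point per animal, numbered by replicate, in group C, group B and sham controls. Filled points were detected on all arrays of the animal and bars are group means. Acta1 lies between 14.09 and 14.27 in all animals, whereas Tg spans 4.41 to 14.41 among sham controls.

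The tissues that accompanied the muscle differed from animal to animal. Brown adipocytes, whose uncoupling protein Ucp1 makes heat, stood out in group C replicate 2 and group B replicate 3: Ucp1 was 4.97, 14.26 and 10.72 in group C, 5.35, 5.62 and 13.00 in group B, and 4.65 to 9.89 in sham controls. Airway epithelium was marked by Bpifa1, a secreted protein of the upper airways, at 4.56, 11.42 and 10.86 in group C, 9.22, 4.57 and 4.44 in group B, and 14.34 in sham control 1 against 4.34 to 4.77 in the other sham controls. Keratin 14 (Krt14), of stratified epithelium, was 4.51, 4.66 and 9.99 in group C, 4.41 to 4.68 in group B, and 14.08 in sham control 4 and 7.57 in sham control 1. No group held 1 tissue of this kind throughout. Slow muscle transcripts varied as well. Its light chain Myl3 was 7.67, 6.14 and 10.94 in group C, 4.39, 4.49 and 4.63 in group B, and 5.67, 9.29, 5.87, 14.01 and 6.58 in sham controls, so that group B lay below both. Of the 9 slow and cardiac muscle genes tested, 2 (Myl2 and Atp2a2) were lower in group B than in sham controls at an unadjusted p under 0.05. Of all transcripts 0.769% were lower at that p. Myl3, singled out after its values were seen, was the only 1 of the 9 without overlap. Of all transcripts 1.14% were lower in group B without overlap. The median log2 ratio of the slow and cardiac muscle list was −0.97, and −0.32 without group B replicate 3. The T and NK lymphocyte list had 12 genes on the array, none of which passed the detection filter.

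Transcripts at least 2 log2 units above every other animal separated the samples further. There were 168 such probes in group B replicate 3, 40 in group B replicate 2 and 36 in group C replicate 2, 2 to 5 in each of the remaining irradiated animals, and 170, 64, 5, 0 and 0 in sham controls 4, 1, 5, 2 and 3. In group B replicate 3 they were led by Slc6a2, the noradrenaline transporter, and by the synaptic and neuronal genes Elavl2, Syt4, Syt1 and Uchl1. In group B replicate 2 they were led by kidney genes, among them Slc34a1, Pdzk1, Umod and Miox. In sham control 4 the leading genes were the keratins Krt13, Krt17 and Krt5, and in sham control 1 genes of secretory glands such as Smgc, Prol1 and Pip. The lists of kidney and neuron markers below were written after these values were seen, so their counts are a description.

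Kidney transcripts were present in the thyroid sample of group B replicate 2. Slc34a1, the phosphate transporter of the proximal tubule, was 11.13 there and between 4.31 and 4.55 in the other 10 animals. Uromodulin (Umod), the protein of the thick ascending limb, was 9.64 against 4.40 to 4.81, and Miox, the inositol oxygenase of the tubule, was 9.72 against 4.36 to 5.09. Of 12 kidney genes on the array, 8 were detected in group B replicate 2. In group C replicate 3 and sham controls 1 and 4 it was 1 each (Cdh16, at 7.99, 6.39 and 10.63). These were the animals with the highest Tg levels, at 14.15, 12.33 and 14.41, and the source of their Cdh16 was not tested. No kidney gene was detected in the remaining animals. With arrays of all tissues normalized together, Slc34a1 was 11.59 in group B replicate 2 and 14.59 to 15.02 in the kidney cortex samples. There it reached the top of the scale, so that the gap is not a measured ratio. Slc34a1 and Umod were detected on all 14 kidney cortex and all 14 kidney medulla arrays, on 1 thyroid array, and on no array of liver, lungs or spleen.

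Neuronal transcripts were present in group B replicate 3. Tyrosine hydroxylase (Th), which makes the precursor of dopamine, was 9.99 there and 4.33 to 4.75 in the other animals. Dopamine β-hydroxylase (Dbh), which completes noradrenaline, was 9.57 against 4.33 to 4.76, and peripherin (Prph), the neurofilament of peripheral neurons, was 9.39 against 4.27 to 4.58. Of 16 neuron genes, 13 were detected in this sample, against 1 to 3 in each of the other 10 animals. Group B therefore held 1 sample with kidney transcripts and another with transcripts of noradrenergic neurons, and leading ratios are given below without one of these samples where leaving it out moved them by over 1.5 times.

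**Figure D2:**
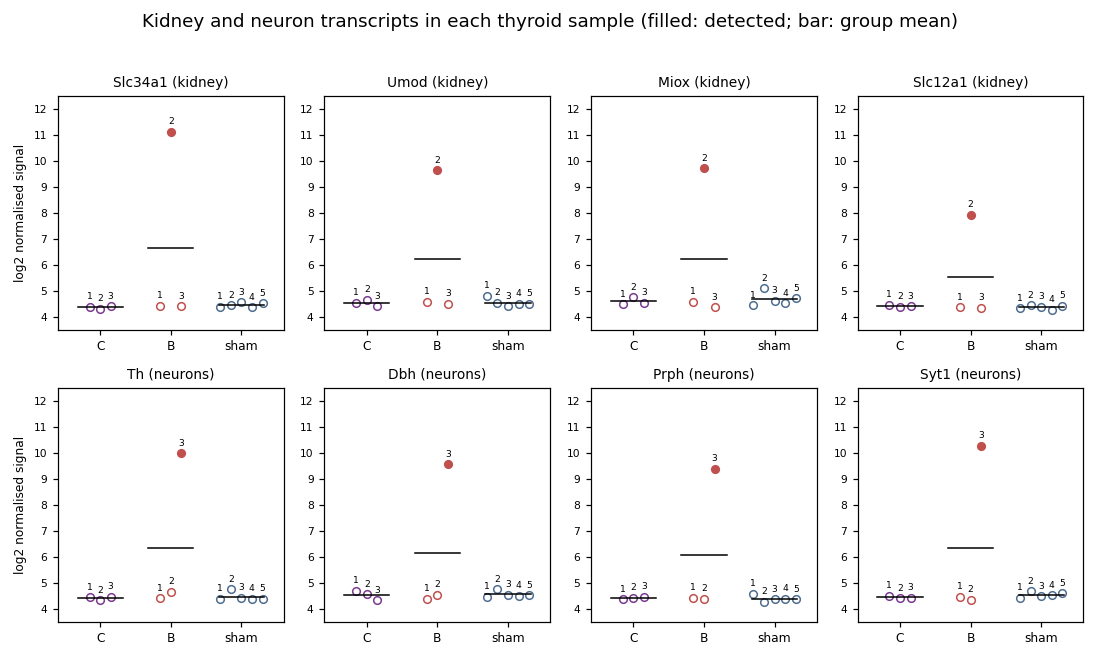
Log2 normalised signal (vertical axis) of 4 kidney and 4 neuron transcripts in each thyroid sample, with 1 numbered point per animal in group C, group B and sham controls, filled where the probe was detected, and bars at group means. The kidney transcripts are high in group B replicate 2 only (Slc34a1 11.13) and the neuron transcripts in group B replicate 3 only (Th 9.99).

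Animals of 1 group differed more in the thyroid than in the other tissues. Among the 5 sham controls the SD of log2 signal had a median of 0.327 over probes in the thyroid, against 0.183 to 0.299 in the other 5 tissues, and it exceeded 1 for 5.95% of thyroid probes, against 0.195% to 1.50% elsewhere. The 3 arrays of sham control 5 had a median SD of 0.117. The lowest correlation between 2 sham controls was 0.851 in the thyroid. On the arrays of the 11 animals 36.9% to 43.6% of probes were detected.

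Against this spread no transcript passed the threshold in any comparison. The threshold joined a limma p below 0.01 after Benjamini-Hochberg adjustment with a log2 ratio of 0.58 or more in size, about 1.49-fold. In group B against sham controls, 0 of 11705 transcripts tested passed (0%), and in group C against sham controls and in group C against group B also 0 of 11705 (0% each). None passed at an adjusted p under 0.05 either, and the smallest adjusted p in limma was 1 for group B against sham controls, 0.951 for group C against sham controls and 1 for group C against group B. At an unadjusted p under 0.05 group B differed from sham controls in 201 transcripts (1.72%), 111 higher (0.948%) and 90 lower (0.769%). Group C differed from sham controls in 255 (2.18%), 164 higher (1.4%) and 91 lower (0.777%), and from group B in 245 (2.09%), 130 higher (1.11%) and 115 lower (0.982%). Log2 ratios reached 0.58 in size for 1250 transcripts (10.7%) in group C and 895 (7.65%) in group B against sham controls, and for 1132 (9.67%) between groups C and B. The median SE of a log2 ratio was 0.272 against sham controls and 0.305 between the irradiated groups. The leading genes named below had the smallest unadjusted p of each comparison among transcripts whose groups did not overlap. Their log2 ratio also had to be at least 0.58 in size, and none of them is called. For each of them the adjusted p in limma is 1 for group B and 0.951 for group C against sham controls. For group C against group B it is 1. Markers, p53 targets and list members named below were chosen otherwise, and some of them overlap. Without overlap between groups were 276 transcripts (2.36%) in group B, 142 higher (1.21%) and 134 lower (1.14%), and 256 (2.19%) in group C, 144 higher (1.23%) and 112 lower (0.957%), each against sham controls. Both sets of ratios use the same sham controls. With so few animals, some transcripts separate 2 groups where no difference exists. The shares at an unadjusted p under 0.05 lay below the share of 0.05 that is met on average where no group differs.

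Among the transcripts named here as higher in group B than in sham controls, Fxyd2 had the largest log2 ratio. It encodes the γ subunit of the sodium-potassium pump, which is abundant in kidney. Its 2 probes were 6.65, 8.64 and 9.13 and, for the second, 5.85, 9.47 and 8.21 in group B, against 5.47 to 5.99 and 5.00 to 5.77 in sham controls. The log2 ratios were 2.33 (SE 0.58) and 2.50 (SE 0.65). All 3 animals of group B lay above the 5 sham controls on both probes, as the naming rule required of the first. Replicates 2 and 3, the samples with kidney and neuron transcripts, were the highest. Without replicate 2 the ratios were 2.07 and 1.69, and without replicate 3 they were 1.83 and 2.32.

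Rgs4, a brake on G protein signalling, was 9.18, 8.04 and 10.11 in group B and 7.65 to 7.86 in sham controls, and Mcam, an adhesion molecule of blood vessels, was 7.29, 6.75 and 8.62 in group B and 5.99 to 6.44 in sham controls. Replicate 3 was highest for both, and without it the log2 ratio was 0.85 in place of 1.35 (SE 0.38) for Rgs4 and 0.76 in place of 1.29 (SE 0.35) for Mcam. Pcbd1, a pterin dehydratase that also binds the transcription factor HNF1, was 5.82, 6.58 and 7.07 in group B and 5.08 to 5.68 in sham controls (log2 ratio 1.16, SE 0.27, and 0.87 without replicate 3). Enpp6, a choline phosphodiesterase, had nearly equal levels in group B, 7.44, 7.30 and 7.39, against 5.76 to 6.53 in sham controls (1.15, SE 0.41). For Enpp6 no animal of group B stood apart, and leaving out replicate 2 or 3 gave 1.19 and 1.15. Ssbp3, a cofactor of LIM transcription factors, was 6.68, 7.07 and 7.35 in group B and 6.05 to 6.62 in sham controls (0.65, SE 0.20).

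Among transcripts lower in group B were Cyp4f39, a fatty acid hydroxylase of the cytochrome P450 family, and Cxcl14, a chemokine of epithelia. Cyp4f39 was 5.06, 5.55 and 4.70 in group B, not well above background on any of the 3 arrays, and 6.07 to 7.10 in sham controls, where all 7 arrays detected it. It was at least 2.01-fold lower in group B, the mean of sham controls set against the lowest detectable signal of each group B array or the probe's own signal where that was higher. Cxcl14 was 5.72, 6.62 and 6.46 in group B and 6.70 to 7.97 in sham controls (log2 ratio −1.33, SE 0.35). The Wnt co-receptor Lrp5 was 5.64, 6.04 and 5.50 in group B and 6.35 to 6.58 in sham controls (−0.74, SE 0.17), and the hypoxia factor Hif1a was 5.36, 5.86 and 5.29 against 5.96 to 6.61 (−0.74, SE 0.21). Lrp5 and Hif1a were named by a rule that required all 3 animals of group B to lie below the sham controls.

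In group C, whose field held the gland, Cdkn1a, which encodes p21, was among the non-overlapping transcripts with the smallest unadjusted p. Larger log2 ratios occurred, up to 3.66 among the brown adipocyte genes tested. Cdkn1a had 3 probes, and the brightest was 9.98, 11.40 and 9.53 in group C, 8.87, 9.32 and 8.33 in group B, and 9.12, 9.48, 9.21, 9.02 and 8.66 in sham controls. On the dimmest, the levels were 7.18, 9.05 and 6.72 in group C, 6.90, 6.36 and 5.60 in group B, and 5.61, 6.65, 6.27, 6.05 and 5.56 in sham controls. All 3 animals of group C lay above all sham controls on each of the 3 probes although narrowly for replicate 3, and replicate 2, the sample rich in brown adipocyte transcripts, was far the highest. The log2 ratio of group C to sham controls was 1.21 (SE 0.39), 1.40 (SE 0.45) and 1.62 (SE 0.50) on the 3 probes. Without replicate 2 of group C it was 0.66 (SE 0.29) on the brightest probe, and with the mean of Ucp1 and Cidea as a covariate it was 1.08 (SE 0.45). In group B, whose field left the gland out, the ratio on these probes was −0.26, 0.06 and 0.26, and on the brightest it was −0.50 without replicate 2 and −0.0063 without replicate 3.

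Trp53inp1, which p53 induces and which acts in autophagy and cell death, varied little among sham controls. It was 8.02, 9.14 and 8.62 in group C, 7.83, 7.87 and 7.57 in group B, and 7.75 to 7.82 in sham controls (log2 ratio of group C 0.82, SE 0.22). Without replicate 2 the ratio was 0.55. On its second probe the levels were 5.71, 7.02 and 6.55 in group C and 5.36 to 6.02 in sham controls, where replicate 1 of group C lay within the sham range. Other p53 targets overlapped between group C and sham controls: Mdm2, the ubiquitin ligase that degrades p53, was 10.28, 10.14 and 10.11 in group C and 10.07 to 10.28 in sham controls, and Ccng1 was 13.04, 11.72 and 13.15 in group C and 13.04 to 13.33 in sham controls on its brightest probe. Phlda3, an inhibitor of AKT, was 10.98, 11.88 and 11.08 in group C and 10.54 to 11.48 in sham controls. Of 36 p53 targets in the list, 33 were on the array and 25 were tested. In group C 2 of the 25, Cdkn1a and Trp53inp1, were higher at an unadjusted p under 0.05 and above all sham controls, and 0 lower. Of all transcripts 1.4% were higher at that p and 1.23% lay above all sham controls. The list had a median log2 ratio of 0.027 against −0.012 over all 11705 transcripts. In group B 0 were higher and 1, the DNA damage binding protein Ddb2, was lower, against 0.948% higher and 0.769% lower of all transcripts. Among Ddb2 probes, those with means of 5.23 and 5.05 in group B were detected on no group B array. Their means in sham controls were 5.42 and 5.40. The list had a median of −0.039 in group B against −0.018 over all transcripts.

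**Figure D3:**
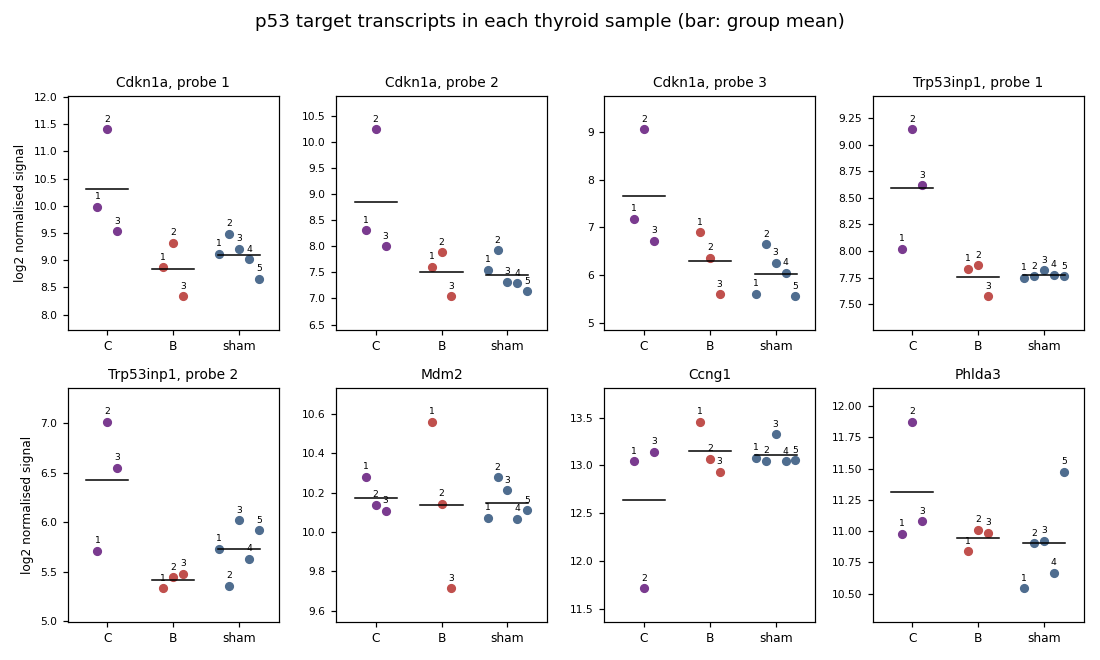
Log2 normalised signal (vertical axis, scaled per panel) of p53 target probes in each thyroid sample, with 1 numbered point per animal in group C, group B and sham controls and bars at group means. All 3 animals of group C lie above the sham controls for the 3 Cdkn1a probes, with replicate 2 highest at 11.40 on the brightest, whereas Mdm2 lies between 9.71 and 10.56 in all animals.

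The same probe of Cdkn1a was compared between thyroid and spleen, since the spleen lies in the field of both groups. With both tissues normalized together, thyroid Cdkn1a was 10.24, 11.54 and 9.81 in group C, 9.18, 9.61 and 8.66 in group B, and 8.97 to 9.77 in sham controls. Spleen Cdkn1a was 10.40, 10.53 and 10.21 in group C, 10.06, 9.95 and 9.86 in group B, and 6.21 to 6.83 in sham controls. The irradiated animals lay above all sham controls in the spleen in both groups, and in the thyroid in group C only. The log2 ratio to sham controls in group B was −0.25 (SE 0.29) in the thyroid and 3.44 (SE 0.29) in the spleen, a difference of −3.69 (SE 0.41, adjusted p = 0.000286 in limma). This was the 1 transcript of 13947 (0.00717%) that passed the threshold for a difference between the tissues in group B, and 1 of 29 p53 targets tested. In group C the ratio was 1.13 in the thyroid and 3.86 in the spleen, a difference of −2.74 (SE 0.41, adjusted p = 0.0255), which did not pass the threshold of 0.01, and 0 of 13947 transcripts (0%) passed. Without the thyroid sample of replicate 2 it was −3.24 (adjusted p = 5.93e-05) and passed. The other 2 probes of Cdkn1a gave differences of −1.77 and −0.84 in group C (adjusted p in limma of 0.927 and 0.986) and −2.63 and −1.52 in group B (adjusted p of 0.185 and 0.999), none of which passed. In group B Phlda3 had a ratio of 0.04 in the thyroid and 1.83 in the spleen, in group C a ratio of 0.38 in the thyroid and 2.14 in the spleen, with differences of −1.79 and −1.76 that did not pass (adjusted p = 0.289 and 0.344). The Cdkn1a level of sham controls was higher in the thyroid samples than in the spleen samples. Each SE of this joint fit rests on a variance pooled over both tissues.

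**Figure D4:**
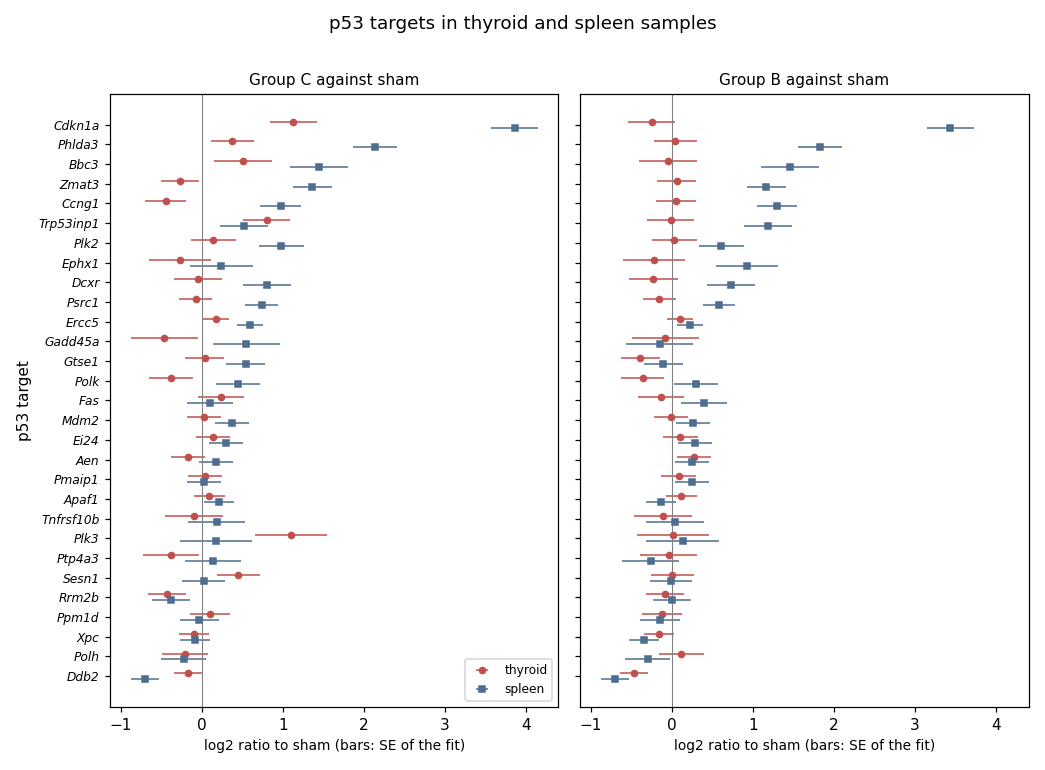
Log2 ratio to sham controls (horizontal axis, bars are the SE of the fit) of 29 p53 targets in thyroid (circles) and spleen (squares), for group C on the left and group B on the right. Cdkn1a lies at −0.25 in the thyroid and 3.44 in the spleen of group B.

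Further transcripts higher in group C than in sham controls were Cdkn2c, the CDK4/6 inhibitor p18, and Ebf2, a transcription factor of brown adipocytes. Cdkn2c was 7.12, 9.34 and 7.46 in group C and 6.20 to 6.66 in sham controls (log2 ratio 1.59, SE 0.48), and Ebf2 was 7.09, 8.81 and 7.12 against 5.62 to 6.60 (1.43, SE 0.43). Replicate 2 was highest for both, and without it the ratios were 0.90 and 0.87. With Ucp1 and Cidea as a covariate they were 0.97 and 0.88. The small GTPase Rhob was 9.53, 10.15 and 9.71 in group C and 8.40 to 9.17 in sham controls (1.05, SE 0.28). Derl2, which moves misfolded proteins out of the endoplasmic reticulum, was 7.01, 7.22 and 7.40 in group C and 6.09 to 6.67 in sham controls (0.87, SE 0.19), and Sys1, a Golgi membrane protein, was 6.14, 6.41 and 6.06 against 5.35 to 5.67 (0.70, SE 0.16). For Derl2 and Sys1 the 3 animals of group C lay close together, and without replicate 2 the ratios were 0.87 and 0.60.

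Among transcripts lower in group C, Socs2, which restrains growth hormone signalling, was 9.49, 8.96 and 9.75 in group C and 9.82 or above in sham controls, with a median of 10.17 (log2 ratio −0.96, SE 0.33). Osgin1, an oxidative stress gene, was 7.05, 6.03 and 6.81 in group C and 7.33 to 7.66 in sham controls (−0.90, SE 0.27, and −0.60 without replicate 2), and the receptor Bmpr1b was 5.93, 5.74 and 5.74 against 6.45 to 6.82 (−0.83, SE 0.21). The ratio of Bmpr1b in group B was −0.16. Cyp4f39, below sham controls in group B as well, was 4.85, 4.70 and 5.79 in group C, detected on 1 of 3 arrays (−1.36, SE 0.33). Both comparisons of Cyp4f39 rest on the same sham controls.

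**Figure D5:**
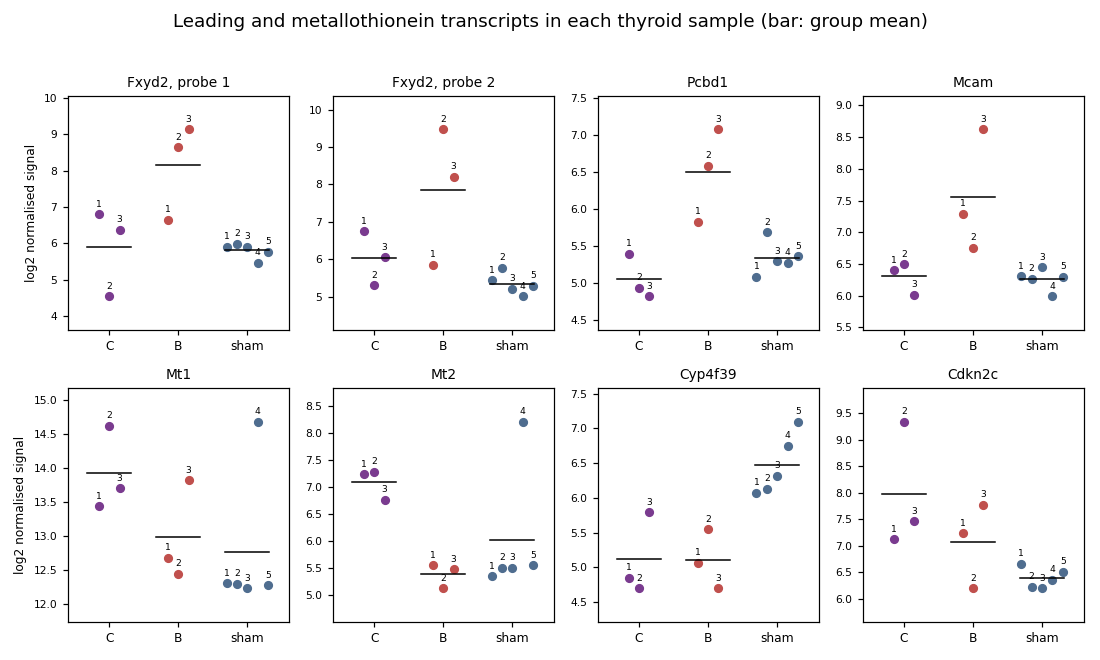
Log2 normalised signal (vertical axis, scaled per panel) of leading transcripts and metallothioneins in each thyroid sample, with 1 numbered point per animal in group C, group B and sham controls and bars at group means. Mt2 lies at 6.77 to 7.28 in group C and 5.12 to 5.55 in group B, with sham control 4 at 8.22.

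Groups C and B differ by the irradiation of the neck and were compared without sham controls. The animals of group C are those compared with sham controls above. The naming rule was applied here after values were seen. Cdkn1a and Trp53inp1 were among the leading transcripts, with log2 ratios of 1.46 (SE 0.44) and 0.84 (SE 0.25) for group C to group B. Without group C replicate 2 these were 0.91 and 0.56. Hif1a and Sys1 followed with 0.80 (SE 0.23) and 0.81 (SE 0.18). Hsd11b1, the enzyme that activates glucocorticoids in tissues, was 8.22, 9.24 and 8.54 in group C and 7.89, 7.61 and 7.58 in group B (0.98, SE 0.24), with sham controls at 8.14 to 8.36. Lower in group C were Ddah1, which degrades methylarginine inhibitors of nitric oxide synthase, and Pcbd1. Ddah1 was 7.93, 6.36 and 7.61 in group C and 8.57, 8.40 and 10.86 in group B (−1.98, SE 0.60), and without group B replicate 3 the ratio was −1.18. Sham controls, at 7.79 to 8.58, overlapped both groups. Pcbd1 was 5.39, 4.93 and 4.81 in group C, not well above background on any array, and at least 2.12-fold lower than in group B. The histone methyltransferase Kmt5a was 7.71, 7.54 and 7.69 in group C and 8.26, 8.45 and 8.21 in group B (−0.66, SE 0.19). With 3 animals against 3, groups did not overlap for 718 transcripts (6.13%), 418 higher (3.57%) and 300 lower (2.56%) in group C.

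The metallothioneins are those whose promoters are shown above. Mt2 was 7.24, 7.28 and 6.77 in group C, 5.55, 5.12 and 5.47 in group B, and 5.34, 5.50, 5.50, 8.22 and 5.55 in sham controls. Mt1 was 13.44, 14.63 and 13.70 in group C, 12.67, 12.44 and 13.82 in group B, and 12.30, 12.29, 12.23, 14.69 and 12.27 in sham controls. On both genes the animals of group C lay above 4 of the 5 sham controls, and sham control 4, the sample with the highest Krt14 and Tg levels, was high as well. For Mt1 group B replicate 3 lay above group C replicates 1 and 3. Mt1 was the 5th brightest probe in group C replicate 2 and the 2nd brightest in sham control 4, at the top of the scale (14.72), so their order on Mt1 cannot be read. The log2 ratio of group C to sham controls was 1.07 (SE 0.57) for Mt2 and 1.17 (SE 0.58) for Mt1, and 1.62 and 1.65 without sham control 4. For Mt2 groups C and B did not overlap, with a ratio of 1.71 (SE 0.64). Mt1, Mt2, Myl3 and the second probe of Fxyd2 were singled out after their values were seen.

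Further glucocorticoid-induced genes had log2 ratios above 0 in group C. Fkbp5, a co-chaperone of the glucocorticoid receptor, was 8.35, 9.15 and 8.96 in group C, 7.76, 7.93 and 7.87 in group B, and 7.72 to 7.95 in 4 sham controls with 8.78 in sham control 2. Ddit4, an inhibitor of the growth kinase mTORC1, was 8.46, 8.92 and 9.29 in group C and 8.32, 7.96 and 8.18 in group B. For both genes the 3 animals of group C lay above those of group B. This held for 3 of the 12 genes tested in this list and for 3.57% of all transcripts. Of the 12 genes of this list that were tested, 3 (Fkbp5, Ddit4 and Klf15) were higher in group C than in sham controls at an unadjusted p under 0.05 and 0 lower. Of all transcripts 1.4% were higher and 0.777% lower at that p. Of the 12, 1, Klf15, lay above all sham controls, against 1.23% of all transcripts. The median log2 ratio of the list was 0.40 in group C. In group B 0 of the list were higher and 0 lower, with a median of 0.03. Tsc22d3 and Sgk1, which glucocorticoids also induce, had ratios of −0.33 (SE 0.31) and −0.14 (SE 0.29) in group C.

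Gene lists of fat and its metabolism had median log2 ratios above 0 in both groups. Of 9 adipocyte genes tested, 1 was higher at an unadjusted p under 0.05 in group C and 1 in group B. Of all transcripts, 1.4% in group C and 0.948% in group B were higher at that p. The adipocyte medians were 1.13 in group C and 0.92 in group B. The adipocyte hormone Adipoq was 10.52, 12.86 and 11.31 in group C, 11.14, 7.14 and 12.42 in group B, and 6.97 to 10.75 in sham controls. Acute phase genes had medians of 1.23 in group C and 0.62 in group B over 9 genes, of which 2 (Hp and Orm2) were higher in group C at an unadjusted p under 0.05. Haptoglobin (Hp), which binds free haemoglobin and is also made by adipocytes, was 7.76, 10.56 and 7.69 in group C. Fatty acid oxidation genes had medians of 0.64 in group C and 0.22 in group B over 16 genes, none past an unadjusted p of 0.05. The highest Adipoq, haptoglobin and Angptl4 (12.51) levels were all in group C replicate 2. Without it the medians of group C were 0.27 for adipocyte, 0.78 for acute phase and 0.16 for fatty acid oxidation genes. Without group B replicate 3 the medians of group B were 0.39, 0.35 and 0.04 for the same lists, and without group B replicate 2 the adipocyte median was 1.61. Without sham control 4 the acute phase medians were 0.69 in group C and 0.38 in group B, and those of fatty acid oxidation 0.36 in group C and 0.10 in group B. With no background correction the acute phase medians were 0.51 in group C and 0.25 in group B. The adipocyte medians were then 0.81 in group C and 0.54 in group B.

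Lists of DNA repair, proliferation and immunity showed few members past an unadjusted p of 0.05. Of all transcripts, 1.4% were higher and 0.777% lower in group C at that p. In group B these shares were 0.948% and 0.769%. Double-strand break repair had 0 of 11 genes higher or lower in either group, with medians of −0.23 in group C and −0.18 in group B, and DNA replication had 0 of 16, with medians of −0.27 in group C and −0.26 in group B. Of 7 mitosis genes tested, 1 was lower in group C, with medians of −0.43 in group C and −0.36 in group B, and sham control 4 had the highest mean over this list. Without sham control 4 the mitosis medians were −0.16 in group C and −0.10 in group B, and those of DNA replication −0.03 in group C and −0.02 in group B. The repair median was −0.04 in group C without its replicate 2 and 0.0047 in group B without its replicate 3. Interferon response genes had 1 of 21 higher in group C and 0 of 21 in group B, with medians of −0.0017 in group C and 0.11 in group B. Respiratory chain genes, 37 of them, had medians of 0.13 in group C and 0.04 in group B with none past an unadjusted p of 0.05. Of 13 genes of thyroid hormone sensing and response, 1 was higher in group C, and 1 was higher and 1 lower in group B, with medians of −0.02 in group C and −0.11 in group B.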

How the data were processed

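RNA of thyroid samples was measured on Illumina MouseRef-8 arrays, 1 array per animal, with 2 repeat arrays of sham control 5. The deposited table holds the average bead intensity of each probe without normalization and, per the file headers, a detection p-value per probe and array; the software behind both is not given in the sources used here. A second table holds intensity values that the authors quantile-normalized in BASE, and it served as an alternative.

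Intensities were background-corrected with nec of limma 3.58.1 in R 4.3.3 (offset 16), quantile-normalized over the 16 thyroid arrays and taken to log2. Of 25697 probes, the 11705 with a detection p under 0.01 on at least 3 thyroid arrays were tested, and repeat arrays were averaged. A linear model over 11 animals was fitted with lmFit and eBayes, two-sided, and p was adjusted by Benjamini and Hochberg over all probes tested. Calls needed an adjusted p below 0.01 together with a log2 ratio of 0.58 or more in size, as in the study, whose text names no test. Thyroid and spleen were compared in a joint model as the difference of their log2 ratios. Samples of both tissues were treated as independent there, although they came from the same mice. Precision is limited by how few arrays there are. The p-values of the thyroid comparisons measure the spread between these 11 samples, which the labels number by replicate. Those of the joint model rest on a variance pooled over both tissues. Sham controls varied more in the thyroid than in the spleen, with an SD over 1 for 5.95% and 0.304% of probes. The pooled SE can therefore be too small for the thyroid.

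The genes named were the transcripts past the threshold or, failing these, up to 10 in each direction with the smallest unadjusted p, a log2 ratio of at least 0.58 and no overlap between groups; markers of cell types; bright members of response lists; and p53 targets. The rule covered comparisons with sham controls and was applied to group C against group B after values were seen. The brightest tested probe stood for a gene unless stated. The samples and lists were chosen with earlier results of these data known. The fit was tested on simulated data. Alternatives were the authors' values, other background, offset, normalization, filter, variance and sample settings, covariates, a replicate block, and each replicate left out.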

Additional observations from a re-analysis of the deposited data

Results flagged for a closer look

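Within the 5 sham controls 52 probes were checked for a sample far from the others, and 8 stood out. The probes were of genes named in the text, some of them after their values were seen. The count therefore cannot be set against a chance rate. Sham control 4 was apart for Mt1 (14.69, the next sham control 12.30), Mt2 (8.22, the next 5.55) and, on the low side, for 2 dimmer probes of Ccng1 (9.53 and 10.06, the next 10.90 and 11.40). Sham control 1 was apart for Bpifa1 (14.34), sham control 5 for the haem synthesis gene Alas2 (11.35), sham control 2 for Fkbp5 (8.78), and sham control 3 for the brightest probe of Ccng1 (13.33, the next 13.08).

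The difference between thyroid and spleen in the log2 ratio of Cdkn1a in group B against sham controls was −3.69, by the test of that difference.

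Thyroid samples irradiated at the collum alone took part in no comparison, and some of their marker levels lay more than 3 log2 units above every sham control. In the second of these samples the salivary gland genes Smgc (14.69), Klk1b27 (14.60), Klk1 (14.51) and Bpifa2 (14.42) were high. In the first the parathyroid hormone gene Pth (13.95) and keratin Krt4 (12.95) were high.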

How the results depend on the processing

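Under every alternative run, 0 transcripts were called in each of the 3 comparisons, also with each replicate left out and at an adjusted p under 0.05. The counts at an unadjusted p under 0.05 ranged from 106 (all 14 thyroid samples in the fit) to 1681 (array weights) for group B against sham controls, where the main count was 201, from 124 to 2384 for group C against sham controls (255), and from 140 to 1775 for group C against group B (245). The array weights did not converge. No detection filter gave 783, 846 and 953, over more probes. With a replicate left out the counts were 121 to 482, 124 to 803 and 224 to 493; the highest were without group B replicate 2, without group C replicate 1 and without group C replicate 1, and the lowest of group C against sham controls was without group C replicate 2. The fit with the replicate number as a block gave 239, 235 and 244. Deviations of same-numbered animals correlated between −0.384 and 0.479, with no common sign. Differences in tissue between samples enter these deviations, so the correlations cannot decide whether the numbers pair the animals.

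The difference of Cdkn1a between thyroid and spleen was −2.86 (authors' values) and −2.77 (no background correction) in group B, with adjusted p in limma of 0.00255 and 0.00412, and −2.00 and −1.92 in group C. With a block for the same group and number in both tissues, the difference was −3.69 in group B and −2.74 in group C. The adjusted p in limma was 0.000298 in group B and 0.0265 in group C. With each thyroid or spleen sample left out in turn, added after seeing the data, it was −3.92 to −3.45 in group B and passed the threshold in 16 of 16 fits (adjusted p in limma of 0.000331 to 0.00249). In group C it was −3.24 to −2.38 and passed in 1 of 16, without the thyroid of replicate 2 (adjusted p = 5.93e-05, over a range of 5.93e-05 to 0.177). The leading genes of each comparison were chosen for groups that do not overlap, which largely fixes their sign, and none of the 20 changed sign in any comparison. Of 38 ratios of p53 targets and other named genes, 18 changed sign under some alternative in group C against sham controls and 26 in group B against sham controls, and 18 of 37 between groups C and B. Of 60 leading ratios over the 3 comparisons, 39 were smaller by over 1.5 times with the authors' values, 48 without background correction and 29 with an offset of 50. Without group C replicate 2 this held for 9 of 40. The covariate of Ucp1 and Cidea was chosen after seeing the data and gave 248, 151 and 286 transcripts at an unadjusted p under 0.05. A beadchip block was not run, since the headers name no beadchip. With a median SE of 0.272, differences of the size of the threshold could be missed. Far larger ones could be missed as well where animals varied. A log2 ratio of 3.66 among the brown adipocyte genes in group C was not called.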
